A study of Homo sapiens with 12 samples.

Results

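The mitochondrial ribosomal protein genes were taken as every gene whose symbol starts with MRPL or MRPS followed by a digit, in the human kidney line HK-2 (immortalised proximal tubular epithelium) treated with the compound called Di. The rule matched 77 symbols that have a probe set of their own, and 76 of them passed the level filter, among 10626 genes tested. The pseudogene MRPL45P2 did not pass, with log2 values of 2.87 to 3.06 over the 12 arrays. Of the 76, 75 encode proteins, 50 of the large and 25 of the small subunit, and MRPL20-AS1 is a noncoding antisense RNA. MRPL53 and MRPS24 share their probe sets with other genes and were not analysed here.

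Mitochondria carry their own ribosome, which translates the few messenger RNAs of the mitochondrial genome into membrane-embedded core subunits of the respiratory chain and of ATP synthase. Its rRNAs come from mitochondrial DNA, while all of its proteins are encoded in the nucleus, made in the cytosol and imported. Some of these proteins are homologues of bacterial ribosomal proteins, and others were added during the evolution of mitochondria. Proximal tubule cells of the kidney depend heavily on oxidative phosphorylation.

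The calls in these genes ran one way at 12 h and both ways at 48 h. At 12 h, 9 of the 76 genes were higher in Di-treated cells and 0 were lower by limma (11.8% higher, against 3.9% of all genes tested higher and 9.78% lower), led by MRPL44 (log2 change 0.66 ± 0.0828, SE) and MRPS12 (0.59 ± 0.0865). Their unadjusted p-values lay under 0.05 in 24 genes with a positive and 1 gene with a negative change, against 1043 and 2195 of the 10626 genes tested. At 48 h, 19 genes were higher and 15 lower (25.0% and 19.7%, against 22.9% and 28% of all genes, which were themselves called in both directions), the strongest being MRPL1 and MRPS26, which fell, and MRPS6 and MRPL18, which rose. Among the 76 genes, MRPL1 alone changed by more than 2-fold at either time (log2 change −1.21 ± 0.0922 at 48 h).

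The 4 groups hold 3 arrays each, with Di-treated and vehicle-treated cells collected at 12 h and again at 48 h. Per the labels, the 3 samples of a group are biological replicates, control cells received the vehicle, and treatment began near confluence in the same medium, which held growth factor, insulin and hydrocortisone, in every group. Neither the identity nor the dose of Di is given in the sources used here. RNA of each sample was labelled with biotin and hybridised to an Affymetrix human array, and values are log2 GCRMA expression values. HK-2 is a single immortalised line. Arrays of 1 group correlated at 0.995 to 0.998 across all probe sets except controls, including those that did not pass the level filter. Probe sets are not independent replicates. All 6 epithelial markers passed the level filter. Their summed linear level was 13346 to 14672 in Di and 17414 to 19254 in control at 48 h. At 12 h it was 15432 to 16483 in Di and 15558 to 16407 in control. At 48 h, 1 of the 6 was called higher and 4 lower, against 22.9% and 28% of all genes tested. The log2 means of KRT8 (10.68 against 10.55) and KRT18 (12.41 against 12.21) were higher in Di at 48 h, and those of the other 4 were lower. Of 9 proximal tubule markers, HAVCR1, the kidney injury molecule, was the only one to pass, and the transporters, channels and brush-border enzymes of the list lay at or below the filter level. The endothelial and leukocyte markers measured did not pass. Of 5 fibroblast markers, DCN, LUM and COL1A1 passed, and their summed level was 662 to 850 in Di and 1345 to 1438 in control at 48 h (2594 to 3083 in Di and 2805 to 3284 in control at 12 h). The part of these markers in the results on the ribosomal genes was not tested. In bulk samples such as these, fewer cells of a type and less RNA per cell cannot be told apart.

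The start-site windows of the genes were read from RefSeq (GRCh38.p14), each holding 250 bases before and 50 bases from the annotated start, and 67 of the 75 coding genes had one. A total of 5 motifs were searched on both strands: the core of the nuclear respiratory factor 1 site (GCGCANGCG), the core of the ETS-family site (CCGGAAG), the core of the YY1 site (AAGATGGCG), the E-box (CACGTG) and the antioxidant response element core (TGACNNNGC). No window held an overlap of 2 different motifs, and in MRPL17 matches of the nuclear respiratory factor 1 core overlapped each other. The ETS core stood in 28 of the 67 windows (41.8%), against 20.6% of the 8818 windows of genes tested and 10.7% of all 27305 windows in the table. The YY1 core stood in 12 (17.9%), against 4.22% of genes tested and 1.85% of all windows. The other motifs were closer to the genes tested, with 19.4% against 16.1% for the nuclear respiratory factor 1 core, 8.96% against 10.8% for the E-box and 11.9% against 15.6% for the antioxidant core. Their shares over all windows were 8.05%, 7.43% and 13.6% in the same order. The median GC content of the windows was 60.3% in the ribosomal genes and 65.7% in genes tested. Of 37 ETS matches, 26 lay within 50 bases of the start site, and 9 of 13 YY1 matches began at or after it. These are matches of letters, not measured binding.

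**Figure D1:**
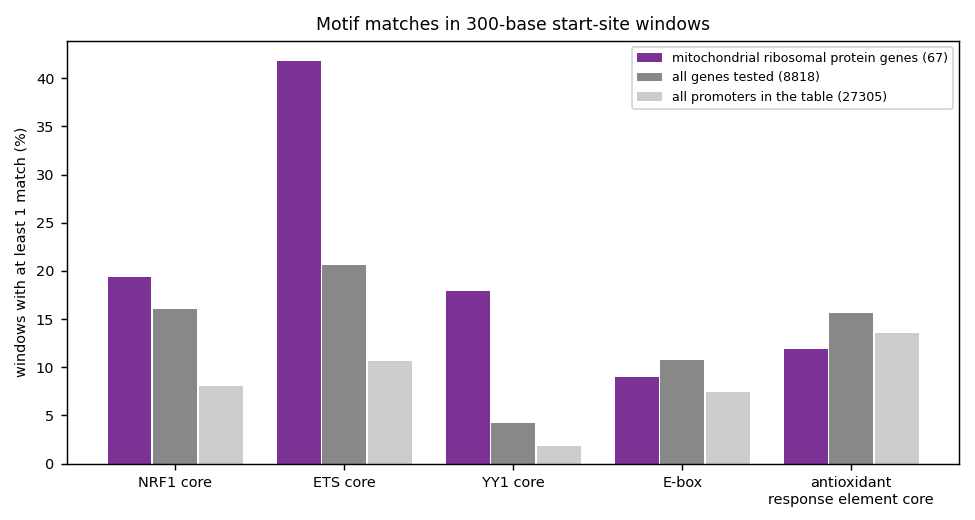
Share of 300-base start-site windows (y axis, %) with at least 1 match of each motif (x axis), for the 67 mitochondrial ribosomal protein genes, the 8818 genes tested and all 27305 windows in the table. The ETS core (41.8% in the ribosomal genes) and the YY1 core (17.9%) stand above both other bars.

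The windows of 6 of the genes named below are shown as examples, 5′ to 3′ on the strand of the gene, with motif matches in capitals. They do not follow the rank of the changes. MRPS26, the largest fall at 48 h after MRPL1, holds an ETS core and is not shown. MRPL18, the largest rise after MRPS6, holds no match and is not shown either. MRPS10 (chr6:42217812-42218111, minus strand) and MRPS18A (chr6:43687742-43688041, minus strand), which both rose at 48 h, each carry an ETS core before the start and a YY1 core just after it, at positions −22 and 9 in MRPS10 and −31 and 9 in MRPS18A, counted from 0 at the start base to the first base of the match. MRPS34 (chr16:1773085-1773384, minus strand), which fell at 48 h, carries 3 ETS cores, all on the opposite strand. MRPL44 (chr2:223957213-223957512, plus strand), the strongest change at 12 h, carries a nuclear respiratory factor 1 core at −194. MRPL1 (chr4:77862580-77862879, plus strand), the strongest fall, and MRPS6 (chr21:34073328-34073627, plus strand), the strongest rise, hold none of the 5 motifs.
MRPS10: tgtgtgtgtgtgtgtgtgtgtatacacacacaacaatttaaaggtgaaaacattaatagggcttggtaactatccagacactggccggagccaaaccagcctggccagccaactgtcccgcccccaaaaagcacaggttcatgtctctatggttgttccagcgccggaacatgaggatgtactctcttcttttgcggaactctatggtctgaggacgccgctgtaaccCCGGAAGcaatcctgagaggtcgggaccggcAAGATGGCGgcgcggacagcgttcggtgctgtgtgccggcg
MRPS18A: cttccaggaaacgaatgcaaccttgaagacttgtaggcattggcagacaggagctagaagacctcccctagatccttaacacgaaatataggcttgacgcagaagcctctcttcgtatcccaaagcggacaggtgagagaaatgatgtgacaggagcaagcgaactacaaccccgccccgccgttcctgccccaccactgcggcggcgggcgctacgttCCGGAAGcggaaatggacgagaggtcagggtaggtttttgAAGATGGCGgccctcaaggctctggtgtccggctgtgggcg
MRPS34: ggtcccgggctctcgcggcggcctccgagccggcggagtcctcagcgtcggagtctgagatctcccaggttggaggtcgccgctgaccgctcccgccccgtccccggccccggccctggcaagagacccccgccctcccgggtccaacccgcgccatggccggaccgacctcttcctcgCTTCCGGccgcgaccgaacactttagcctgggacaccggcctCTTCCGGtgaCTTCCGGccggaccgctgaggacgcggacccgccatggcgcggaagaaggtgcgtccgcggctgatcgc
MRPL44: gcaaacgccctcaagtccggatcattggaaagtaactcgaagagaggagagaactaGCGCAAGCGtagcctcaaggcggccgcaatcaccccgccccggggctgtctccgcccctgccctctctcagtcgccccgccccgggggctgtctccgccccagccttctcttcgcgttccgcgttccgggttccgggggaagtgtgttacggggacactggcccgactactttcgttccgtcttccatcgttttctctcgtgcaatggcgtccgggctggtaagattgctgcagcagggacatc
MRPL1: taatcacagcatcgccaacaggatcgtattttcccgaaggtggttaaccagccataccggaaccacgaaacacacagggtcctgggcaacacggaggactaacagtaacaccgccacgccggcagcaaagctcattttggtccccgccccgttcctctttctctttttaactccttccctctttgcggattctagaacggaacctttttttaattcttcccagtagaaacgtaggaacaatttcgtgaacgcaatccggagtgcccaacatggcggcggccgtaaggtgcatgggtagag
MRPS6: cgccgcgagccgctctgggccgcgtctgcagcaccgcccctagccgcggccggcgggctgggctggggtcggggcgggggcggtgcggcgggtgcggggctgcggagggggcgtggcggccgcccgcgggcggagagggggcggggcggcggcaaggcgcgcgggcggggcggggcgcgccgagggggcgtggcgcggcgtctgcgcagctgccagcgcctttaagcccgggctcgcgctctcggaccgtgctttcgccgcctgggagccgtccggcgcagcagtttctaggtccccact

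By direction of change, the ETS core stood in 9 of 18 windows of genes higher at 48 h, in 6 of 13 of genes lower at 48 h and in 13 of 36 of genes not called. The YY1 core stood in 3, 1 and 8 of the same windows, and the nuclear respiratory factor 1 core in 3, 1 and 9. The antioxidant core stood in 2 of the 18, 4 of the 13 and 2 of the 36. Of the 67 windows, 18 held no match, among them those of MRPL18 and MRPL12. ETS and YY1 cores occurred together in MRPL38, MRPL52, MRPS10 and MRPS18A. No test was run on these counts.

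At 12 h the changes in the ribosomal genes lay mostly above 0. The median log2 change over the 76 genes was 0.111, against −0.06 over all genes tested. Of the 76 changes, 58 were positive, against 4094 of 10626 over all genes. The 9 genes called higher are 11.8% of the 76, against 3.9% of all genes called higher, while 9.78% of all genes were called lower and 13.7% in either direction. The 50 genes of the large subunit had 6 called higher and 0 lower with a median of 0.120 (unadjusted p under 0.05 in 17 with a positive and 0 with a negative change), and the 25 of the small subunit 3 higher and 0 lower with a median of 0.104 (7 and 1). Over all 10626 genes tested, the unadjusted counts were 1043 and 2195. The count of 9 changed with single arrays. It was 4 without control 12 h replicate 2 or without control 12 h replicate 3, 5 without Di 12 h replicate 3, Di 48 h replicate 2 or control 48 h replicate 3, and 2 when only the 6 arrays of this time were fitted. Over all genes tested, the 414 called higher became 189, 205, 236, 339 and 371 without these arrays, in the same order. They became 145 with only the 6 arrays. With each array centred on its median over the genes tested, 15 of the 76 were higher and 0 lower. Over all genes tested, 735 were then higher and 618 lower, in place of 414 and 1039. The share of higher among all those calls was 54.3% in place of 28.5%.

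MRPL44, a large-subunit protein with a ribonuclease III-like fold, read 8.93, 9.09 and 8.97 in Di at 12 h, against 8.48, 8.21 and 8.32 in control. The Di arrays all lay above the controls, and the log2 change of 0.66 ± 0.0828 (SE, 3 arrays per group) had an adjusted p of 0.00132 by limma. Its other probe set, marked as open to cross-hybridisation, changed by 0.19 (adjusted p 0.443). MRPS12, the homologue of the bacterial protein that guards decoding accuracy, read 10.49, 10.72 and 10.56 in Di and 10.13, 9.82 and 10.06 in control at 12 h. It rose by 0.59 ± 0.0865 (adjusted p 0.00263), again without overlap. MRPL42, a mitochondrion-specific protein of the large subunit, read 10.42, 10.53 and 10.42 in Di and 10.19, 9.92 and 9.97 in control, a rise of 0.43 ± 0.0821 (adjusted p 0.00822). This rise depends on the probe set: 2 other probe sets of MRPL42 changed by 0.01 and 0.03, and with the mean of its probe sets it was not called. MRPL38, a protein of the central protuberance of the large subunit, read 8.31, 8.48 and 8.40 in Di and 8.18, 7.65 and 8.08 in control. Control replicate 2 lay well below the other arrays, and the rise of 0.42 ± 0.121 had an adjusted p of 0.041.

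MRPL18, whose bacterial homologue binds 5S rRNA, read 11.23, 11.36 and 11.30 in Di and 11.02, 10.97 and 10.89 in control at 12 h, and rose by 0.34 ± 0.0756 (adjusted p 0.0152). The other 4 rises at 12 h were under 0.3. MRPL36, the homologue of a small zinc-binding bacterial protein, read 11.32, 11.42 and 11.32 in Di and 11.12, 11.10 and 11.02 in control (0.28 ± 0.0816, adjusted p 0.0467). MRPS23, a mitochondrion-specific protein of the small subunit, rose by 0.27 ± 0.076 (adjusted p 0.041). MRPL15, a core protein of the large subunit, read 10.71, 10.80 and 10.77 in Di and 10.51, 10.44 and 10.54 in control (0.26 ± 0.0591, adjusted p 0.0154). MRPS16, a homologue of a bacterial assembly protein of the small subunit, had the smallest called change, 0.24 ± 0.0721 (adjusted p 0.0499), and its other probe set changed by 0.04. MRPL12, the stalk protein that contacts translation factors, read 8.79, 8.95 and 8.90 in Di and 8.65, 8.64 and 8.62 in control. Its arrays did not overlap, but the change of 0.24 ± 0.0786 had an adjusted p of 0.0659 and was not called. A larger change without a call was that of MRPL2, a protein next to the peptidyl transferase centre, at 0.51 ± 0.161 (adjusted p 0.0605). That change depends on the probe set, since the other probe set of MRPL2 changed by −0.01.

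RNA quality was read from the control probe sets. The gap between the 3′ and 5′ control probe sets of actin was 1.22 ± 0.239 log2 units with Di and 1.71 ± 0.178 without it at 12 h (SD, n = 3 each; exact permutation p 0.1, two-sided, the smallest possible with 3 against 3). At 48 h the gap was 1.41 ± 0.0776 with Di and 1.33 ± 0.128 without it (exact permutation p 0.5). For GAPDH the gap at 12 h was 0.05 ± 0.0994 with Di and 0.13 ± 0.0841 without it (exact permutation p 0.3), and at 48 h −0.03 ± 0.0396 with Di and 0.00 ± 0.0206 without it (exact permutation p 0.2). Di 12 h replicate 2 lay farthest from its group, with a root mean square distance from the group mean of 0.138 over the ribosomal genes, against 0.0642 to 0.103 for the other arrays. Without it, 7 genes were higher at 12 h and 0 lower. Whether RNA quality had a part in the changes at 12 h was not tested.

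**Figure D2:**
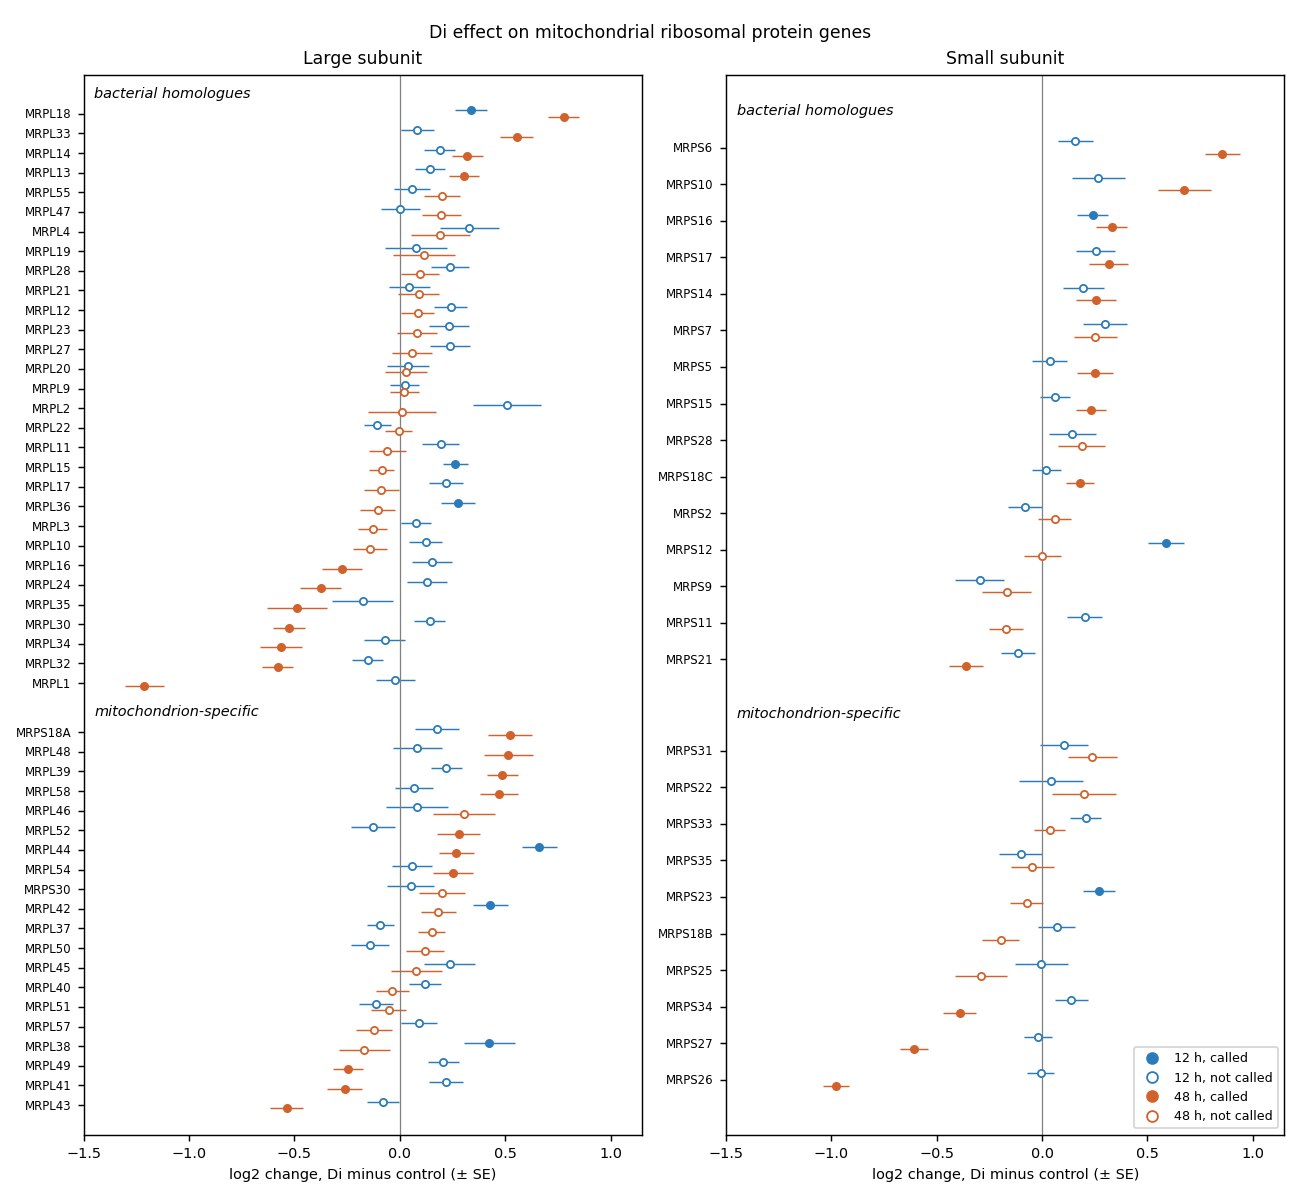
Log2 change, Di minus control (x axis, bars ± SE), of each coding mitochondrial ribosomal protein gene (y axis), at 12 h and at 48 h, for the large subunit (left, 50 genes) and the small subunit (right, 25 genes), n = 3 arrays per group; filled points passed an adjusted p under 0.05. Filled points at 12 h all lie right of 0, and those at 48 h run from −1.21 (MRPL1) to 0.85 (MRPS6).

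At 48 h the ribosomal genes split in both directions. The 19 higher genes are 25.0% of the 76 and the 15 lower 19.7%, against 22.9% and 28% of all genes tested, with 50.9% of all genes called in either direction. Neither share was tested against that of all genes. The median log2 change was 0.06, against −0.02 over all genes. In the large subunit 11 of 50 were higher and 10 lower (median 0.07), and in the small subunit 8 of 25 were higher and 4 lower (median 0.06). With the dimmest probe set of each gene the small-subunit median was −0.0459, and without control 48 h replicate 2 the small-subunit count higher was 3, against 4 or 5 without Di 48 h replicate 1, 2 or 3 or control 48 h replicate 1. The count of 19 was 11 without control 48 h replicate 2 and 13 to 21 without any other single array. Over all genes tested, the 2436 called higher became 2192 without control 48 h replicate 2.

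The genes were also counted by evolutionary origin at 48 h. Of the 15 small-subunit genes with a bacterial homologue, 8 were higher and 1 was lower (53.3% and 6.67%, median 0.23), against 0 higher and 3 lower of the 10 mitochondrion-specific genes of that subunit (median −0.14; unadjusted p under 0.05 in 0 with a positive and 5 with a negative change). Over all 10626 genes tested, the unadjusted counts were 2709 and 3260. In the large subunit 4 of the 30 genes with a bacterial homologue were higher and 7 lower (median 0.02), and of the 20 mitochondrion-specific genes 7 were higher and 3 lower (median 0.17). No test of these differences was run. The 8 rises among small-subunit homologues became 4 without Di 48 h replicate 1, Di 48 h replicate 2 or control 48 h replicate 1, 5 without Di 48 h replicate 3 and 3 without control 48 h replicate 2. With the dimmest probe set of each gene, 4 of the 15 were higher and 3 lower. The median of the large-subunit homologues was −0.01 when each array was centred on its median over all probe sets. The 7 rises of large mitochondrion-specific genes were 4 without control 48 h replicate 2.

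**Figure D3:**
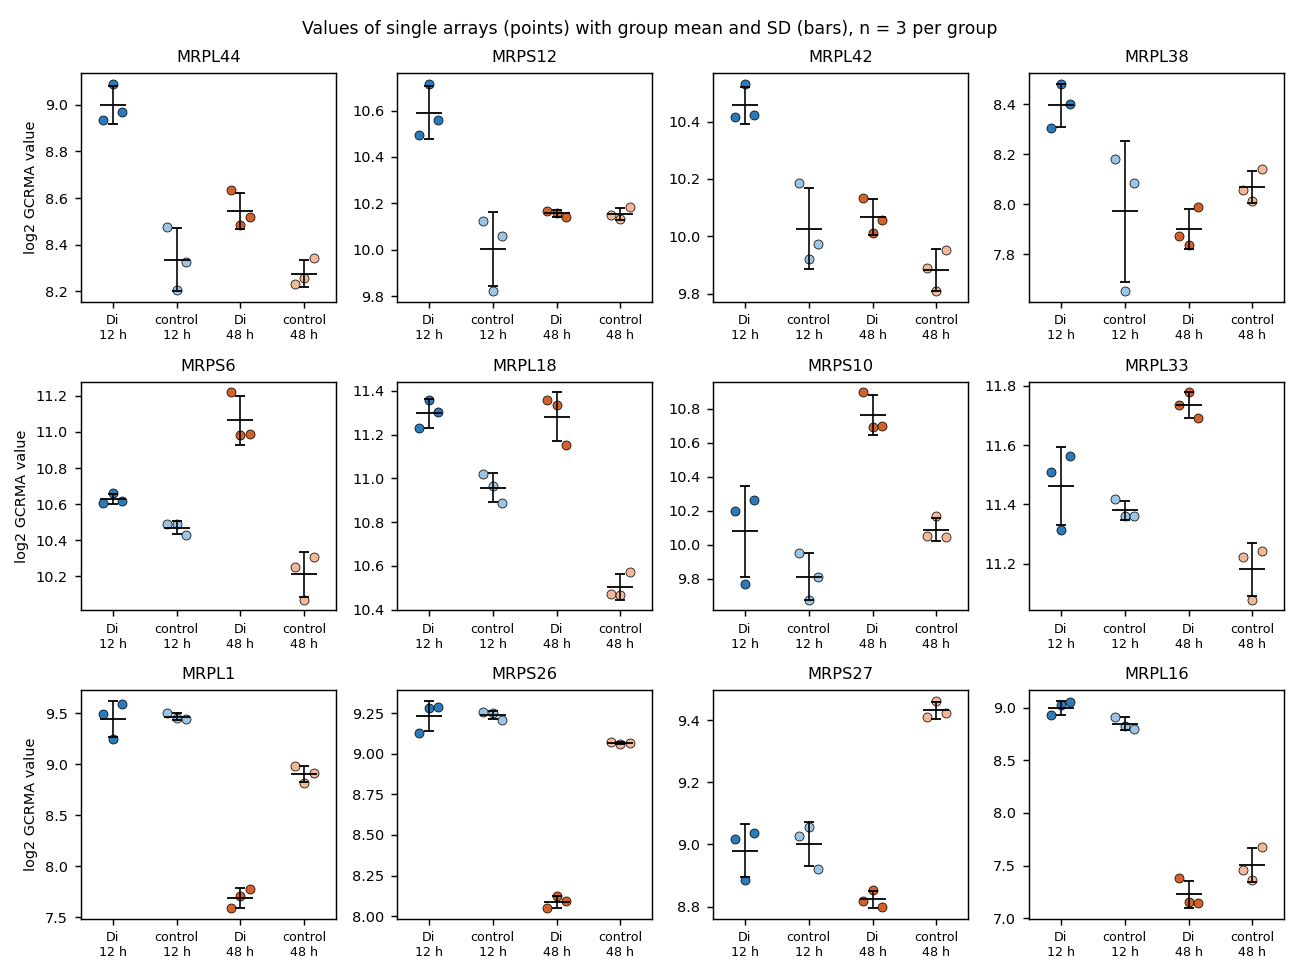
Log2 GCRMA values (y axes, a range of its own per gene) of single arrays (points) with group mean and SD (bars), n = 3 per group, for 12 mitochondrial ribosomal protein genes; at each time Di stands left of control. The top row rose at 12 h, the middle row at 48 h, and in the bottom row MRPL1, MRPS26 and MRPS27 fell at 48 h only, while MRPL16 was low at 48 h with and without Di.

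MRPL1 and MRPS26 fell most. MRPL1, the protein of the mobile stalk next to the exit site for transfer RNA, read 7.59, 7.70 and 7.78 in Di and 8.98, 8.82 and 8.91 in control at 48 h. It was 2.32-fold lower (log2 change −1.21 ± 0.0922, adjusted p 9.19e-07), with 12 h values of 9.49, 9.25 and 9.59 in Di and 9.50, 9.45 and 9.44 in control. The Di arrays at 48 h lay more than 1 log2 unit below every control, while at 12 h the groups overlapped (change −0.02, 95% interval −0.20 to 0.16). MRPS26, a mitochondrion-specific protein of the small subunit, read 8.05, 8.12 and 8.09 in Di and 9.07, 9.06 and 9.07 in control at 48 h. It was 1.97-fold lower (−0.98 ± 0.0634, adjusted p 2.51e-07), and its 12 h change was −0.01 (95% interval −0.13 to 0.12). MRPS27, a pentatricopeptide-repeat protein of the small subunit that binds RNA, read 8.82, 8.85 and 8.80 in Di and 9.41, 9.46 and 9.42 in control at 48 h. Its fall of 0.61 ± 0.0661 (SE) on the log2 scale (adjusted p 1.57e-05) came beside a control level that was 0.43 higher at 48 h than at 12 h.

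The next falls were in the large subunit. MRPL32, whose precursor is processed by the mitochondrial m-AAA protease before it joins the ribosome, read 10.56, 10.52 and 10.52 in Di and 11.06, 11.10 and 11.17 in control at 48 h (log2 change −0.58 ± 0.0732, adjusted p 5.08e-05). MRPL34, homologue of a small bacterial protein, read 8.19, 8.40 and 8.53 in Di and 9.04, 8.94 and 8.84 in control (−0.56 ± 0.0986, adjusted p 0.000581). For these genes every Di array lay below every control. MRPL43, a mitochondrion-specific protein, read 9.30, 9.42 and 9.32 in Di and 9.90, 9.86 and 9.90 in control (−0.54 ± 0.0766, adjusted p 0.00013). MRPL30, homologue of a bacterial large-subunit protein, read 9.68, 9.81 and 9.73 in Di and 10.26, 10.21 and 10.33 in control (−0.53 ± 0.0744, adjusted p 0.000122). Its 4 other probe sets were all lower at 48 h too, with log2 changes of −0.26 to −1.04, and 2 of them were called higher at 12 h by 0.62 and 0.59, where the probe set used here was at 0.14 (not called).

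MRPL35, homologue of another bacterial large-subunit protein, read 6.08, 6.27 and 6.47 in Di and 6.58, 7.08 and 6.61 in control at 48 h (−0.49 ± 0.144, adjusted p 0.0148). It lost its call when the mean of its probe sets was used, and another of its probe sets changed by 0.11. MRPL20-AS1, transcribed opposite to MRPL20, read 6.57, 6.22 and 6.22 in Di and 6.93, 6.83 and 6.68 in control (−0.48 ± 0.102, adjusted p 0.00223), while MRPL20 changed by 0.03. MRPS34, a mitochondrion-specific protein of the small subunit, read 7.31, 7.28 and 7.21 in Di and 7.73, 7.54 and 7.70 in control (−0.39 ± 0.078, adjusted p 0.00144). The other 5 falls were MRPL24, MRPS21, MRPL16, MRPL41 and MRPL49, at log2 changes between −0.38 and −0.25. The other probe set of MRPL41 changed by −0.03.

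The strongest rises at 48 h were in genes with a bacterial homologue. MRPS6, a protein of the platform of the small subunit, read 11.22, 10.99 and 10.99 in Di and 10.25, 10.07 and 10.31 in control at 48 h. It was 1.81-fold higher (log2 change 0.85 ± 0.0841, adjusted p 7.16e-06), with 12 h values of 10.60, 10.66 and 10.62 in Di and 10.49, 10.49 and 10.43 in control. In RefSeq, MRPS6 (chr21:34073578-34143030) and SLC5A3 (chr21:34073578-34106260), which encodes a myo-inositol transporter, begin at the same base, and SLC5A3 rose by 1.00 (adjusted p 6.38e-06) at 48 h and changed by −0.23 (adjusted p 0.128) at 12 h. SLC5A3 was chosen after its values were seen, and whether the 2 probe sets read the same transcripts was not tested. MRPL18 read 11.36, 11.33 and 11.15 in Di and 10.47, 10.47 and 10.57 in control at 48 h. It was 1.71-fold higher (0.78 ± 0.0756, adjusted p 6.62e-06), with controls at 48 h 0.45 below controls at 12 h and Di arrays at about the same level at both times.

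MRPS10, which sits in the head of the small subunit, read 10.90, 10.69 and 10.70 in Di and 10.05, 10.17 and 10.05 in control at 48 h (0.67 ± 0.126, adjusted p 0.000946). MRPL33, homologue of a small bacterial protein, read 11.73, 11.78 and 11.69 in Di and 11.22, 11.08 and 11.24 in control (0.55 ± 0.0784, adjusted p 0.000123). All Di arrays of these genes lay above all controls. MRPS18A, named for the small subunit but placed in the large one by the structure of the human ribosome, read 8.03, 8.01 and 8.02 in Di and 7.49, 7.36 and 7.64 in control (0.52 ± 0.105, adjusted p 0.00153). MRPL48, a mitochondrion-specific protein of the large subunit, read 8.88, 8.71 and 8.73 in Di and 8.33, 8.17 and 8.28 in control (0.51 ± 0.117, adjusted p 0.0033). MRPL39, related to threonyl-tRNA synthetase, read 9.81, 9.87 and 9.74 in Di and 9.30, 9.43 and 9.23 in control (0.49 ± 0.0725, adjusted p 0.000182). MRPL58, a peptidyl-tRNA hydrolase that also frees stalled mitochondrial ribosomes, read 9.18, 9.24 and 9.05 in Di and 8.72, 8.53 and 8.81 in control (0.47 ± 0.0886, adjusted p 0.000977). The other 11 rises were smaller, at log2 changes between 0.18 (MRPS18C) and 0.33 (MRPS16).

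The S18 family has 3 human members, and their changes at 48 h differed in size and sign. MRPS18A rose as above, and MRPS18C, the member that takes the place of bacterial S18 in the small subunit, rose by 0.18 ± 0.0667 (adjusted p 0.0417). MRPS18B, a further small-subunit member, read 10.70, 10.78 and 10.88 in Di and 11.12, 10.97 and 10.85 in control. The groups of MRPS18B overlapped, and its change of −0.20 ± 0.0885 (adjusted p 0.0867) was not called. For MRPS18C a dimmer probe set fell by 0.43, so that its direction depends on the probe set. MRPS30, another protein named for the small subunit and placed in the large one, read 9.30, 9.46 and 9.34 in Di and 9.06, 9.14 and 9.30 in control (0.20 ± 0.11, adjusted p 0.155). Its 2 other probe sets fell by 1.14 and 0.61 at 48 h, the reverse of the brighter probe set used here.

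Over all ribosomal genes, 27 had 43 further probe sets, of which 26 changed with the same sign as the one used at 12 h and 32 at 48 h. Of the 20 further probe sets of genes called at 48 h, 16 changed with the same sign as the one used, although that of MRPL41 was near 0. Of the 5 further probe sets of genes called at 12 h, 5 did, although those of MRPL42 and MRPS16 were near 0. The exceptions at 48 h included MRPS14, a small-subunit homologue of a bacterial protein, called higher by 0.25, for which another probe set fell by 1.10, and MRPS16, called higher by 0.33, for which another changed by −0.17. A probe set of MRPL42 fell by 0.86 at 48 h, where the probe set used changed by 0.18 and was not called. The least variable gene over the 4 groups was MRPL40, with group means within 0.118 of each other, and the most variable was MRPL1 (1.78). The median range of the 4 group means was 0.554 in the coding ribosomal genes and 0.701 in all genes tested.

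Early and late effects were compared gene by gene through the difference of the Di changes, 48 h minus 12 h. That difference was positive past the threshold in 5 of the 76 genes (6.58%) and negative in 20 (26.3%), against 19.8% and 18.5% of all genes tested, with 38.3% in either direction. The median difference was −0.14 over the 76 genes and 0.02 over all genes. The median of the 76 was −0.05 without control 12 h replicate 3 and −0.09 without control 48 h replicate 3. By subunit, 4 of 50 large-subunit genes had a positive and 13 a negative difference (median −0.15), and 1 of 25 small-subunit genes a positive and 6 a negative one, with a small-subunit median of the opposite sign, 0.06. The 5 positive differences became 3 without Di 48 h replicate 2 or control 12 h replicate 1.

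MRPL1 (difference −1.19 ± 0.13, adjusted p 4.01e-05), MRPS26 (−0.97 ± 0.0897, adjusted p 1.15e-05) and MRPL30 (−0.67 ± 0.105, adjusted p 0.000517) had the most negative differences, followed by MRPL38 (−0.59 ± 0.171, adjusted p 0.0177) and MRPS27 (−0.59 ± 0.0935, adjusted p 0.00055). MRPS12, close behind, was higher at 12 h and at 48 h read 10.17, 10.16 and 10.14 in Di and 10.15, 10.13 and 10.18 in control. Its change at 48 h was 0.00 (95% interval −0.17 to 0.17), and the difference of −0.59 ± 0.122 had an adjusted p of 0.0031. The call for the difference depends on the probe set. Another probe set of MRPS12 changed by 0.58 at 12 h and by 0.31 at 48 h (adjusted p 0.171 by limma). Its difference was −0.27 (adjusted p 0.425). The positive differences were those of MRPS6 (0.70 ± 0.119, adjusted p 0.000873), MRPL33 (0.47 ± 0.111, adjusted p 0.00621), MRPL18 (0.44 ± 0.107, adjusted p 0.00767), MRPL52 (0.41 ± 0.145, adjusted p 0.0456) and MRPL58 (0.40 ± 0.125, adjusted p 0.0258). MRPL52 is a mitochondrion-specific protein of the large subunit, and it rose by 0.28 at 48 h after a change of −0.13 at 12 h that was not called. The other probe set of MRPL52 had a difference of 0.13, which was not called.

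MRPL44, MRPL18 and MRPS16 were called higher at both times, and no gene was called in opposite directions at the 2 times. Of the 6 large-subunit genes higher at 12 h, 2 were higher and 0 lower at 48 h, and of the 3 small-subunit genes 1 was higher and 0 lower. Calls at both times were not counted over all genes tested, so these counts are not read as particular to the ribosomal genes. MRPL44 read 8.63, 8.48 and 8.52 in Di and 8.23, 8.26 and 8.34 in control at 48 h, a rise of 0.27 that was smaller than at 12 h (difference −0.39 ± 0.117, adjusted p 0.0211). For MRPS16 the changes at both times were close, 0.24 and 0.33, with a difference whose 95% interval runs from −0.11 to 0.29. Across the 75 coding genes the changes at 12 h and 48 h correlated weakly (Pearson 0.304, Spearman 0.280), with 53 of 75 of the same sign, against 0.259 and 6286 of 10626 over all genes. Within the large subunit the Pearson correlation was 0.272 and the Spearman correlation 0.146, and within the small one 0.368 and 0.50. The points of such a correlation are genes measured on the same arrays and are not independent.

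**Figure D4:**
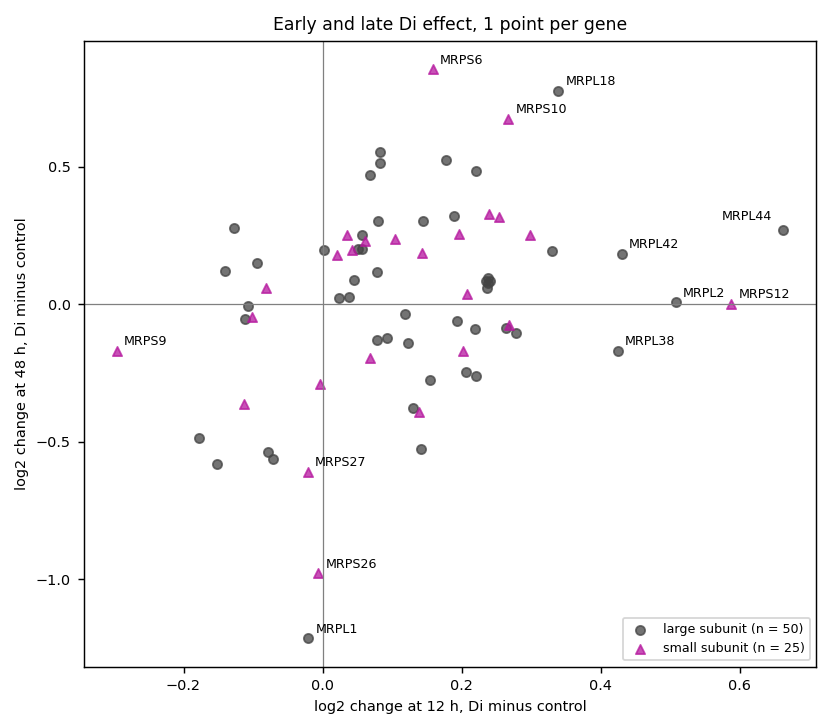
Log2 change, Di minus control, at 12 h (x axis) and at 48 h (y axis), 1 point per coding mitochondrial ribosomal protein gene (circles, 50 large-subunit genes; triangles, 25 small-subunit genes). MRPL44 and MRPS12 lie far right with changes of 0.27 and 0.00 at 48 h, and MRPL1, MRPS26 and MRPS27 lie far down with changes near 0 at 12 h.

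Control values of these genes also differed between 12 h and 48 h, and the cause was not tested. Controls at 48 h were lower than controls at 12 h in 34 of the 76 genes (44.7%) and higher in 6 (7.89%), with a median of −0.18, against 31% lower, 21.9% higher, 52.9% in either direction and a median of −0.06 over all genes. Centred on the median of the genes tested, 24 of the 76 were lower and 9 higher, against 2713 lower and 2883 higher over all 10626 genes. The share of higher among all those calls was 51.5% in place of 41.3%. In the large subunit 24 of 50 were lower and 3 higher, and in the small subunit 10 of 25 were lower and 3 higher. Both Di contrasts and this one share control arrays, so their values are set side by side here and not correlated.

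MRPL16, a protein at the tRNA-binding sites of the large subunit, read 7.46, 7.36 and 7.68 in control at 48 h and 8.92, 8.83 and 8.80 in control at 12 h, a log2 change of −1.35 ± 0.0948 (adjusted p 6.27e-07). Di arrays at 48 h, at 7.38, 7.15 and 7.14, lay slightly lower still (−0.28 ± 0.0948 against control at 48 h, adjusted p 0.0302). MRPS28 (−0.87 ± 0.112, adjusted p 6.63e-05) and MRPL50 (−0.71 ± 0.0913, adjusted p 6.07e-05) came next, and neither was called for Di at either time. The genes that were higher in control at 48 h than at 12 h were led by MRPL10, which anchors the stalk (0.68 ± 0.0796, adjusted p 3.12e-05), MRPL45, which ties the large subunit to the inner membrane (0.57 ± 0.121, adjusted p 0.00217), and MRPL2 (0.53 ± 0.161, adjusted p 0.0176). The other probe set of MRPL2 changed by 0.08 between these controls and was not called. MRPL45 was not called for Di, at 0.24 at 12 h and 0.08 at 48 h.

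Of the 75 coding genes, 41 had their highest group mean in the Di arrays of 12 h, 12 in the controls of 12 h, 17 in the Di arrays of 48 h and 5 in the controls of 48 h. The lowest mean lay in Di at 48 h for 26 genes and in the controls of that time for 34. No share over all genes tested stands beside these counts, so they are not read as particular to the ribosomal genes. Per array, the median deviation of the coding genes from their own means was 0.152, 0.178 and 0.211 in Di at 12 h, against 0.114, 0.0122 and 0.0406 in control at 12 h. At 48 h it was −0.05, −0.09 and −0.15 in Di, against −0.10, −0.20 and −0.10 in control. The groups did not overlap at 12 h and did overlap at 48 h. Over all genes tested, the median deviation at 12 h was 0.012, −0.046 and 0.010 in Di, against 0.0555, 0.0319 and 0.0241 in control. Those values did not overlap either, with Di the lower group.

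Other genes of mitochondrial translation were read from lists of their own, against 22.9% of all genes tested higher and 28% lower at 48 h, and 3.9% higher and 9.78% lower at 12 h. Of 4 ribosomal subunits that carry other names, 2 were higher and 1 lower at 48 h. DAP3, a GTP-binding protein of the small subunit, read 11.52, 11.37 and 11.35 in Di and 10.99, 10.95 and 11.06 in control (0.41 ± 0.0679, adjusted p 0.000371), though its dimmest probe set changed by −0.17. CHCHD1, also of the small subunit, rose by 0.42 ± 0.0859 (adjusted p 0.00162). Among 26 assembly factors and rRNA-modifying enzymes, 5 were higher and 8 lower at 48 h (19.2% and 30.8%, near the shares of all genes), and 1 was higher and 1 lower at 12 h. TFB1M, which methylates the small-subunit rRNA, fell by 0.75 ± 0.107 (adjusted p 0.000128), and FASTKD2, which binds the large-subunit rRNA, rose by 0.57 ± 0.0626 at 48 h (adjusted p 1.69e-05) and by 0.26 ± 0.0626 at 12 h (adjusted p 0.0213).

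Of 14 mitochondrial translation factors, 0 were called at 48 h by limma (unadjusted p under 0.05 in 2 with a positive and 0 with a negative change, against 2709 and 3260 of all 10626 genes). At 12 h, 1 was higher and 1 lower. TUFM, the elongation factor that delivers aminoacyl-tRNA, changed by −0.09 at 48 h (adjusted p 0.302). The smallest p-values at 48 h in that list belonged to MTRF1L, a release factor (0.27, adjusted p 0.0572), and GUF1, homologue of a bacterial elongation factor (0.23, adjusted p 0.0621), neither of which was called. Of 15 mitochondrial aminoacyl-tRNA synthetases, 4 were higher and 4 lower at 48 h (26.7% each), with EARS2, for glutamate, up by 0.73 ± 0.085 (adjusted p 2.65e-05) and WARS2, for tryptophan, at −0.60 ± 0.0907 (adjusted p 0.000206).

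Of 11 genes of mitochondrial DNA transcription and replication, 1 was higher and 2 lower at 48 h (9.09% and 18.2%), and 1 was higher and 1 lower at 12 h. TFAM, which packages mitochondrial DNA and starts its transcription, read 9.28, 9.30 and 9.08 in Di and 8.81, 8.67 and 8.77 in control at 12 h, and 8.04, 8.22 and 8.12 in Di and 8.43, 8.68 and 8.51 in control at 48 h. TFAM was thus called in opposite directions, 0.47 ± 0.0896 at 12 h (adjusted p 0.00832) and −0.41 ± 0.0896 at 48 h (adjusted p 0.00254). MGME1, a mitochondrial exonuclease, was lower by 1.00 on the log2 scale at 48 h (adjusted p 1.24e-06), and POLRMT, the mitochondrial RNA polymerase, was called at neither time. Among 8 regulators of mitochondrial biogenesis, 2 were higher and 2 lower at 48 h (25% each). PPARGC1A, the coactivator PGC-1 alpha, was 2.83-fold lower (adjusted p 2.68e-05), and GABPB1, a subunit of the ETS-family factor GABP, rose by 0.82 ± 0.11 (adjusted p 8.08e-05). NRF1, the nuclear respiratory factor, rose by 0.63 ± 0.135 (adjusted p 0.00221). GABPA, the DNA-binding subunit of GABP, was lower (−0.58 ± 0.207, adjusted p 0.0348), but its dimmest probe set changed by 0.36 (adjusted p 0.102). MYC was not called (−0.09 at 48 h).

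Transcripts of oxidative phosphorylation and of the cytosolic ribosome were set beside these lists. Of 7 protein-coding genes of mitochondrial DNA that passed the filter, 0 were called at either time by limma, and 0 had an unadjusted p under 0.05. These are RNA levels, and the output of mitochondrial translation was not measured. Of 70 nuclear-encoded subunits of oxidative phosphorylation, 3 were higher and 29 lower at 48 h (4.29% and 41.4%, against 22.9% and 28% of all genes; median −0.11), and 0 were higher and 1 lower at 12 h (median −0.01). Their largest changes by p-value were falls of NDUFB10, a complex I subunit (−0.85 ± 0.0804, adjusted p 5.23e-06), and ATP5IF1, the inhibitor of ATP synthase (−0.84 ± 0.0824, adjusted p 6.91e-06). Of 60 cytosolic ribosomal protein genes, 3 were higher and 3 lower at 48 h (5% each, median −0.04), and 0 were higher and 3 lower at 12 h. RPL31, a large-subunit protein, fell by 1.14 ± 0.0965 (adjusted p 2.12e-06), and RPS27L, a variant of a small-subunit protein, rose by 0.58 ± 0.0825 (adjusted p 0.000125) at 48 h. The difference between these lists and the mitochondrial ribosomal genes was not tested.

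**Figure D5:**
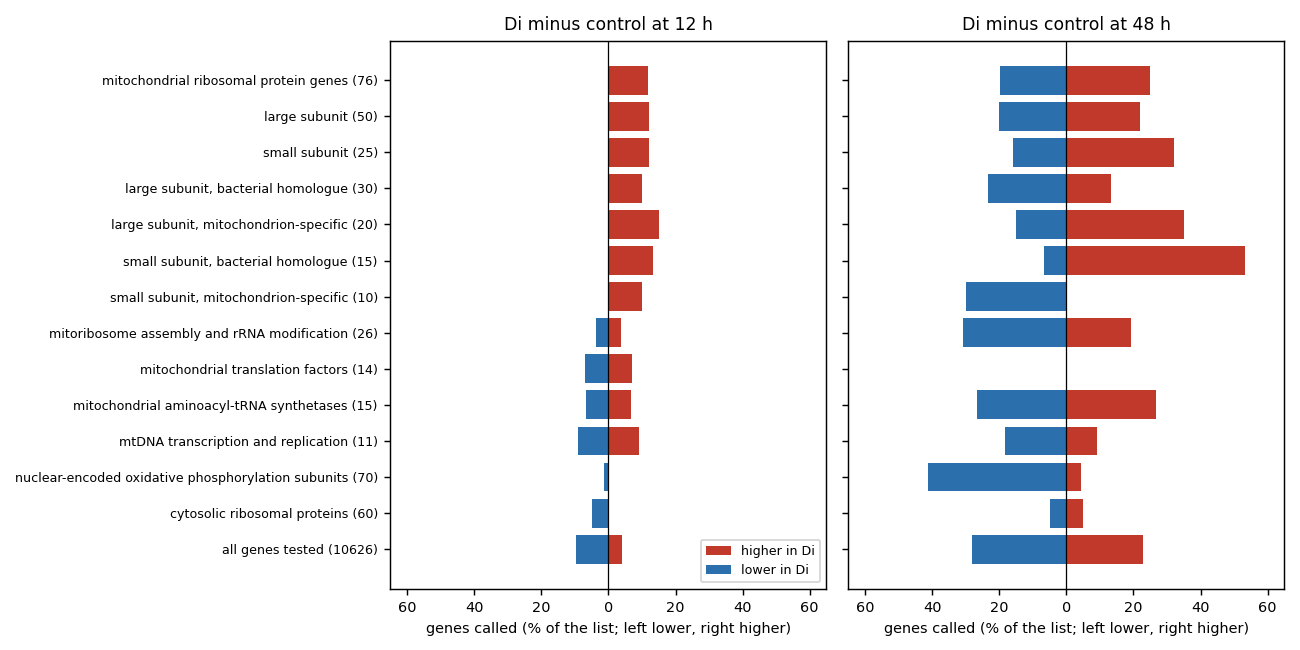
Share of each gene list (x axis, %) called higher (right) and lower (left) in Di than in control at 12 h (left panel) and 48 h (right panel), with the number of genes tested in parentheses on the y axis. At 48 h the 70 oxidative phosphorylation subunits lie mostly to the left (41.4% lower), and the 15 small-subunit genes with a bacterial homologue mostly to the right (53.3% higher).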

How the data were processed

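RNA of 12 samples of HK-2 cells was measured on Affymetrix human arrays. Per the submitters' processing notes, the deposited values come from GCRMA (version not given in the sources used here), and the deposited table holds log2 values made by the authors for 54675 probe sets. Arrays give no counting depth, and the number of arrays limits the precision. From there, 62 control probe sets were left out, symbols came from the platform annotation (41097 probe sets with 1 gene, 1801 with several, 11777 with none) brought up to date with gene tables, and probe sets that exceeded log2 4 on 3 or more of the 12 arrays were kept (21715). The brightest kept probe set by mean stood for each gene, one with the suffix _x_at only where no other was kept (10626 genes). limma 3.58.1 in R 4.3.3 fitted 1 mean per group to all 12 arrays (lmFit, eBayes, two-sided), with p-values adjusted over all 10626 genes (Benjamini-Hochberg) and calls made under 0.05. Errors are standard errors of that fit unless given as SD, and 95% intervals are the change ± 1.96 SE. No p was computed for a list.

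The steps were tested on simulated data, with 100 genes planted at each size in the 48 h comparison of 10626 genes. Of these, 37% of changes of 0.5 and 89% of changes of 1 (log2) were recovered, with 7 false calls. The 200 planted genes are a far smaller share than the 50.9% of genes called in the data at 48 h. The recovery therefore does not give the sensitivity of the 48 h results. The ribosomal genes, the lists and the tests were chosen with earlier results of these data known. Named genes were the 8 largest called rises and 10 largest called falls at each time without overlap of the groups, the 5 largest differences between times and the 3 largest control changes in each direction, MRPL12, MRPS12, MRPL58, MRPL45, MRPS30 and the S18 family, and in the other lists the 2 smallest p-values at 48 h and 7 fixed genes. Those called beyond the rule are named too. Subunits follow the structure of the human mitochondrial ribosome. Motif windows were the first listed for each gene (11 genes had several). Alternatives were other filters, normalizations, moderation, probe set choices, fits and the removal of each array. Python 3.11.15 and matplotlib 3.10.9 made the figures.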

Additional observations from a re-analysis of the deposited data

Results flagged for a closer look

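The Di change differed between 12 h and 48 h, by limma's test of the difference itself, in 25 of the 76 genes. The difference (48 h minus 12 h, log2) was positive in MRPS6 (0.70), MRPL33 (0.47), MRPL18 (0.44), MRPL52 (0.41) and MRPL58 (0.40). Among large-subunit genes it was negative in MRPL1 (−1.19), MRPL30 (−0.67), MRPL38 (−0.59), MRPL24 (−0.51), MRPL34 (−0.49), MRPL41 (−0.48), MRPL43 (−0.46), MRPL49 (−0.45), MRPL16 (−0.43), MRPL32 (−0.43), MRPL44 (−0.39), MRPL36 (−0.38) and MRPL15 (−0.35). Among small-subunit genes it was negative in MRPS26 (−0.97), MRPS27 (−0.59), MRPS12 (−0.59), MRPS34 (−0.53), MRPS11 (−0.37) and MRPS23 (−0.34), and it was −0.43 in the antisense RNA MRPL20-AS1. MRPL41, MRPL49 and MRPS11 lay above 0 at 12 h without a call. Other probe sets of MRPL41, MRPL44, MRPL52 and MRPS12 had differences of −0.01, −0.09, 0.13 and −0.27, none of them called. Those of MRPL43 were called negative too, at −0.55 and −0.83. The genes MRPL46 and MRPS11 start 320 bases apart on opposite strands of chromosome 15 (GRCh38.p14), a pair chosen after its values were seen, and MRPL46 had no call for the difference.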

How the results depend on the processing

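Across the alternatives other than leaving out an array, 630 of the single-gene results kept their direction and call, 38 lost and 4 gained a call, and 6 reversed; with 1 array left out, 767 kept both, 60 lost and 1 gained a call, and 0 reversed. The 9 ribosomal genes higher at 12 h became 15 after centring on the genes tested (an alternative chosen after seeing the data), 5 with the replicate block, 2 with only the arrays compared and 4 with the dimmest probe set. Over all genes tested, the 414 higher became 735, 272, 145 and 458 in the same order. No alternative run called a ribosomal gene lower at 12 h. The 6 large-subunit genes became 10 after centring and 1 with only the arrays compared, and the 3 small-subunit genes 5, 1, 1 and 0 under the same 4 alternatives. Centring moved the 12 h medians to 0.197 (all), 0.207 (large) and 0.190 (small). At 48 h the 8 small-subunit genes higher became 5 with the mean of probe sets and 4 with the dimmest one, and their median became −0.0459 with the dimmest one and 0.18 by the letter of the symbol. The 5 positive differences between times became 8 with trend and robust moderation, 3 with quantile normalization, 3 after centring and 9 with the mean of probe sets. The cause was not tested. Reversed among these results were MRPS18C (−0.13 with the mean, −0.43 with the dimmest probe set), MRPS30 (−0.52 and −0.61), DAP3 (−0.17, dimmest) and GABPA (0.36, dimmest). The tally does not take in every gene at every time. For example, MRPS14 (−1.10), MRPS16 (−0.17) and MRPL42 (−0.86) also changed sign at 48 h with the dimmest probe set.

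With 1 array left out, genes higher at 12 h ranged from 4 to 10 (lower 0, median 0.0837 to 0.154), in the large subunit from 3 to 5 (lower 0, median 0.0933 to 0.163) and in the small from 1 to 5 (lower 0, median 0.0779 to 0.116). At 48 h the range was 11 to 21 higher and 13 to 16 lower (median 0.0125 to 0.102), 8 to 11 and 8 to 10 in the large (0.01 to 0.112), and 3 to 10 and 4 to 5 in the small (0.0298 to 0.130). Differences between times ranged from 3 to 6 positive and 15 to 22 negative (median −0.141 to −0.05), and control changes from 5 to 7 higher and 26 to 36 lower. Without control 12 h replicate 2 or 3 the large-subunit count at 12 h was 3 and the small-subunit count 1. The small-subunit count was also 1 without Di 12 h replicate 3, Di 48 h replicate 2 or control 48 h replicate 1 or 3, and 5 without control 12 h replicate 1. Arrays of the other time enter a comparison through the shared spread alone.

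Deviations of same-numbered Di and control samples from their group means correlated at 0.154, −0.08 and −0.23 at 12 h. At 48 h these correlations were 0.01, 0.09 and −0.26. Samples with unlike numbers lay at −0.21 to 0.27 at 12 h and −0.31 to 0.29 at 48 h. With 3 samples per group, these values cannot decide whether the numbers pair the samples. With the replicate block, 16 genes were higher and 16 lower at 48 h, and 4 differences were positive and 18 negative.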
